A study of Mus musculus with 24 samples.

Results

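Tubulin isotypes, the alternative α and β subunits from which microtubules are built, were described in endothelial and blood cells of mouse embryos. The genes were chosen by name, 7 β tubulins (Tubb1, Tubb2a, Tubb2b, Tubb3, Tubb4b, Tubb5 and Tubb6) and 3 α tubulins (Tuba1a, Tuba4a and Tuba8), and all 10 were found among the 29716 genes of the count table. All 10 also passed the filter on low counts, which left 15618 genes for testing. The choice by name was made with earlier results of these data known.

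A microtubule is a hollow polymer of paired α and β tubulin, and mammals carry a small family of genes for each subunit. Most isotypes are shared by many tissues, but some mark a cell type. Tubb1 encodes β1 tubulin, made almost only by megakaryocytes and platelets, where it is the main β subunit of the marginal band, the microtubule coil that keeps a platelet flat and round. Tuba4a encodes an α tubulin whose gene ends without the terminal tyrosine codon of most others, and it is required for normal platelet formation. Tubb5 encodes the common housekeeping β tubulin of dividing cells.

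RNA-seq was measured in 24 libraries from C57BL/6J embryos at E10.5. In every group an antibody was injected into the heart and whole embryos were then cultured for 5 h (37 °C, CO2 at 5%). The culture medium held the injected antibody at 5 µg/ml, with 10 µM hydrocortisone and 10 ng/ml IL-3 in all groups. The antibody was anti-human IgG (IgG, the control) or anti-Dll4, directed against a ligand of Notch receptors, and the study asked which genes differ with it in 3 sorted populations. All cells were CD31+, and the gates were Kit+ CD45-, Kit- CD41+ CD45- (written Kit- CD41+) and Kit+ CD45+, with 4 libraries for each population and antibody. CD31, Kit, CD41 and CD45 are the proteins of Pecam1, Kit, Itga2b and Ptprc. The labels do not give the number of embryos per library, so p-values measure the spread between these libraries, which may be technical.

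Library totals ran from 8718351 to 11379830 counts. Levels are CPM, counts of a gene per 1e+06 counts of its library, scaled with TMM factors that correct for library composition. Under IgG, Itga2b was highest in Kit- CD41+ cells, at 539.8 ± 162 CPM (SD, n = 4), against 58.6 ± 31.3 in the Kit+ CD45- gate and 14.6 ± 2.89 in the Kit+ CD45+ gate. Ptprc reached 82.3 ± 33.0 CPM in the Kit+ CD45+ gate, and the other IgG libraries held at most 1.51 CPM. The platelet lineage markers were 18 genes such as Pf4 and Gp1bb, with Itga2b, the gene of the CD41 gate, among them. They summed to 26304 to 33251 CPM in the 8 Kit- CD41+ libraries. The sums were 793 to 4447 in the 8 of Kit+ CD45- cells and 312 to 867 in the 8 of Kit+ CD45+ cells. Globin genes took 16.8% to 49.3% of the counts in Kit+ CD45- libraries, 4.18% to 14.1% in Kit- CD41+ libraries and at most 0.0226% in Kit+ CD45+ libraries. In bulk samples such as these, fewer cells of a type and less RNA per cell cannot be told apart.

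On mm10, in the positions of the deposited table, Tubb1 lies at chr2:174450695-174457882 on the plus strand and Tubb4b at chr2:25222160-25224702 on the minus strand. Tubb2a (chr13:34074274-34078007, minus) and Tubb2b (chr13:34126748-34130466, minus) are neighbours. Tubb3 lies at chr8:123411424-123422015 (plus), Tubb5 at chr17:35833921-35838306 (minus) and Tubb6 at chr18:67390717-67402748 (plus). The α tubulin genes are Tuba1a (chr15:98949841-98953551, minus), Tuba4a (chr1:75214228-75219865, minus) and Tuba8 (chr6:121210696-121226854, plus).

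Tubulin genes share coding sequence, and this sets how far a count can be assigned to 1 gene. Of all 50-base windows in the GENCODE M21 transcripts, those of Tuba1a were found in another gene for 72.9%, most often in Tuba1c, those of Tubb2a for 49.6% (Tubb2b), those of Tubb4b for 37.8% (the pseudogene Tubb4b-ps1) and those of Tubb2b for 36.9% (Tubb2a). The counts of these 4 genes are therefore uncertain. Tubb1, Tubb3 and Tubb6 shared no such window, and Tuba4a, Tuba8 and Tubb5 shared at most 0.807%. Exons of Tuba4a are overlapped over 37.3% of their length by Stk16 on the other strand, and those of Tuba8 over 16.3% by Gm15856. Exons of Tuba1a are overlapped over 26.2% by Gm49450 on the same strand. Whether the counting used strand is not given in the sources used here, so reads in those overlaps cannot be assigned.

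The bases just upstream of 5 of the genes are shown so that their motif matches can be read beside the values. The printed bases lie before the start RefSeq gives each gene, which for Tubb1 is upstream of the start in the deposited table. RefSeq windows on GRCm38.p6 covered 8 of the 10 genes; Tubb2b was not matched and Tubb6 was not used here. Only bases outside annotated exons are printed, which left none for Tuba4a. The motifs searched on both strands were GATAA, the core bound by GATA factors; TGANTCA, the core shared by NF-E2 and AP-1 sites; GGAAGT, the core of many ETS sites; and the promoter boxes CCAAT and TATAAA. Matches are in capitals. No matches overlap, and 1 CCAAT of Tubb4b is followed directly by the GGAAGT. Tubb1, chr2:174450345-174450594, plus strand, Tuba8, chr6:121210484-121210695, plus, and Tubb2a, chr13:34078009-34078258, minus, come first because these genes were higher in Kit- CD41+ cells; Tubb4b, chr2:25224703-25224952, minus, and Tubb5, chr17:35838307-35838551, minus, follow as genes expressed throughout.
Tubb1: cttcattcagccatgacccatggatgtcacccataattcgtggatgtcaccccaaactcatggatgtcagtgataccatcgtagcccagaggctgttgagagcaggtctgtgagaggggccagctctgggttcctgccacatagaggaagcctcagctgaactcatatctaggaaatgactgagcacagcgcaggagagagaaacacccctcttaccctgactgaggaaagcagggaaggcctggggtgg
Tuba8: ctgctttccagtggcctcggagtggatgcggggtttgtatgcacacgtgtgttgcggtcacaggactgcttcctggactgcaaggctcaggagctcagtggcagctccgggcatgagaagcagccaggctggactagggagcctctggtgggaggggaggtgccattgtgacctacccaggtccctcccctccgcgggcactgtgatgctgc
Tubb2a: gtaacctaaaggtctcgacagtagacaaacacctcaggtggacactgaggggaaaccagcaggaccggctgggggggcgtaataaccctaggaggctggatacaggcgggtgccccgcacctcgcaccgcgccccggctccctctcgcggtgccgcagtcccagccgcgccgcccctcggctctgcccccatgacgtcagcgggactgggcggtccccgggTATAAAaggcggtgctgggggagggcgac
Tubb4b: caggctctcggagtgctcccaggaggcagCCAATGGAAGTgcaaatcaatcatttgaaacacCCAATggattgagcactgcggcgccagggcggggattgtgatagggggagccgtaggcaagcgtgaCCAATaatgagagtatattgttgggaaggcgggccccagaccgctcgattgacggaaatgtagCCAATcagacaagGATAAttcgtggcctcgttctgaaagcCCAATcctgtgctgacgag
Tubb5: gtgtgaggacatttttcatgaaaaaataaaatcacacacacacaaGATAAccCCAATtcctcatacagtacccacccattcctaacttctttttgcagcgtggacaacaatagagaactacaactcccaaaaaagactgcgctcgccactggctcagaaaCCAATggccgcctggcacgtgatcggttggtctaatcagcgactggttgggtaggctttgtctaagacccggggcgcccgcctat
The Tubb1 and Tuba8 windows held none of the 5 letter strings, and the Tubb2a window held 1, the TATAAA from 29 to 24 bases before the start. Tubb4b held 5 CCAAT, 1 GATAA and 1 GGAAGT, and Tubb5 held 2 CCAAT and 1 GATAA. Tubb3 and Tuba1a, not printed, held 1 CCAAT each. Over all 32851 RefSeq windows of this kind, 33.8% held CCAAT, 22.6% GATAA, 19.7% GGAAGT, 12.4% TATAAA and 6.75% TGANTCA. These matches are descriptions of the letters only.

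Tubb1 transcripts were high in Kit- CD41+ cells, low in Kit+ CD45- cells and at or near 0 in the Kit+ CD45+ gate. Under IgG the 4 Kit- CD41+ libraries held 634, 550, 414 and 422 CPM. The 4 Kit+ CD45- libraries held 25.1, 67.1, 39.6 and 112 CPM. The Kit+ CD45+ libraries held 1.36 CPM (18 counts) in replicate 2 and no Tubb1 count in the other 3. No library of one population reached the range of another. The mean in Kit- CD41+ cells was 505 ± 106 CPM (SD, n = 4) against 61.0 ± 38.3 in Kit+ CD45- cells, a log2 fold change of 3.05 (SE 0.59, edgeR adjusted p = 0.00037).

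Against Kit+ CD45+ cells, the Tubb1 mean in Kit- CD41+ cells was 1484 times as high under IgG (log2 fold change 10.48, SE 0.91, edgeR adjusted p = 3.73e-09). That value rests on the single library with reads. Without Kit+ CD45+ IgG replicate 2 no Tubb1 read remained in that group, and the fitted log2 fold change, 15.33, is then no bound. Against those 3 libraries alone, set at a floor of 3 counts per library or 0.232 CPM, the mean was at least 2175-fold higher, which is no bound for the group with replicate 2 in it. Tubb1 was also lower in Kit+ CD45+ than in Kit+ CD45- cells, by a log2 fold change of -7.42 (SE 0.86, edgeR adjusted p = 1.13e-06), which read -12.27 without that library, a fitted value that is no bound either. The floor covers counting error only, since amplified reads without molecular identifiers are not independent molecules.

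Under anti-Dll4 the order of the 3 populations was the same. Tubb1 stood at 431, 513, 528 and 344 CPM in Kit- CD41+ cells, at 12.6, 43.7, 12 and 9.84 in Kit+ CD45- cells and at 0.373, 4.11, 7.91 and 1.47 for Kit+ CD45+ cells. Replicate 2 was well above the other Kit+ CD45- libraries. Kit- CD41+ cells were higher than Kit+ CD45- cells by 4.52 (SE 0.64, edgeR adjusted p = 8.05e-06) on the log2 scale, or 5.31 without that library. They were higher than Kit+ CD45+ cells by 7.03 (SE 0.73, edgeR adjusted p = 6.35e-08), and by 7.80 without Kit+ CD45+ anti-Dll4 replicate 3. Kit+ CD45+ cells were lower than Kit+ CD45- cells by a log2 fold change of -2.51 (SE 0.65, edgeR adjusted p = 0.00526). This call was lost without Kit+ CD45- anti-Dll4 replicate 2, where the value was -1.75 and the edgeR adjusted p 0.0523, in a range of 0.00213 to 0.0523 over 15 alternatives. The value was -3.27 without Kit+ CD45+ anti-Dll4 replicate 3.

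**Figure D1:**
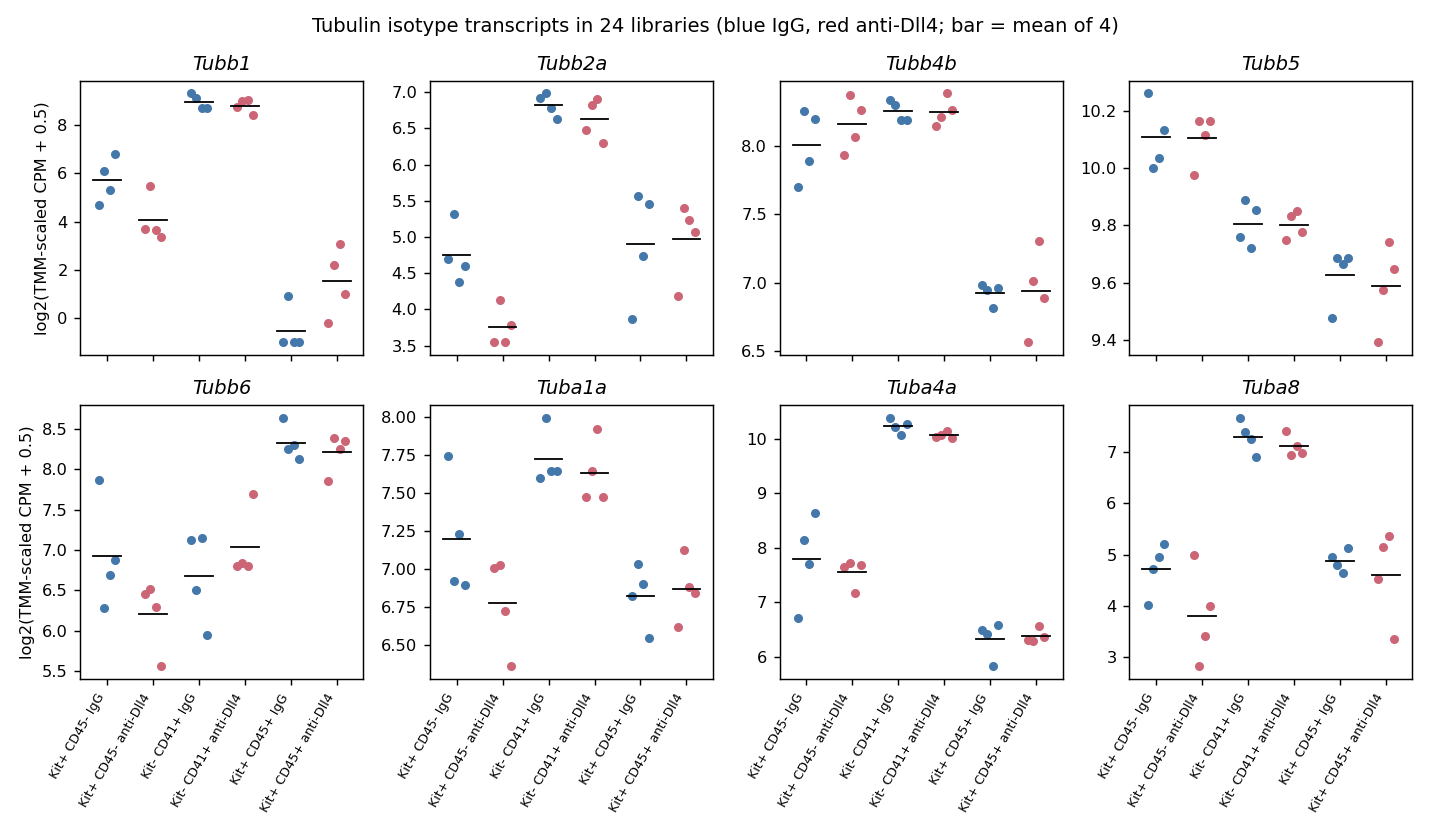
Levels of 8 tubulin genes as log2(TMM-scaled CPM + 0.5) on the vertical axis, 1 point per library in 6 groups, with the mean of 4 libraries as a bar; blue is IgG and red anti-Dll4. Tubb1, Tubb2a, Tuba4a and Tuba8 were highest in Kit- CD41+ cells, and Tubb6 was highest in Kit+ CD45+ cells, while Tubb5 stayed between 671 and 1227 CPM in all 24 libraries.

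Tubb1 was next set against the platelet lineage markers, of which it is not one. It amounted to 1.74 ± 0.50% (SD, n = 4) of the summed marker CPM in Kit- CD41+ cells under IgG and 2.03 ± 0.63% in Kit+ CD45- cells, and the lowest and highest libraries overlapped (1.27% to 2.35% against 1.26% to 2.56%). Under anti-Dll4 it was 1.60 ± 0.37% and 2.05 ± 2.33%, the latter with 5.51% in replicate 2, the library with the highest Tubb1 and the lowest marker sum (793 CPM) of its group. In Kit+ CD45+ cells the proportion was 0.0537 ± 0.107% under IgG and 0.408 ± 0.383% under anti-Dll4. Under IgG, Tuba4a was 4.11 ± 0.61% of the marker sum in Kit- CD41+ cells, 8.42 ± 1.76% in Kit+ CD45- cells and 17.3 ± 8.15% for Kit+ CD45+ cells. All 18 markers were higher in Kit- CD41+ than in Kit+ CD45- cells under IgG, and the median of their log2 fold changes was 3.23. Itga2b, 1 of the 18, encodes the CD41 used in the gate, so its difference was set by the sorting. In the same comparison 7 of 9 endothelial markers and 10 of 11 erythroid markers were lower, with medians of -2.28 and -2.17. Of all tested genes, 13.8% were higher and 14.0% lower. The part of these markers in the Tubb1 difference was not tested.

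**Figure D2:**
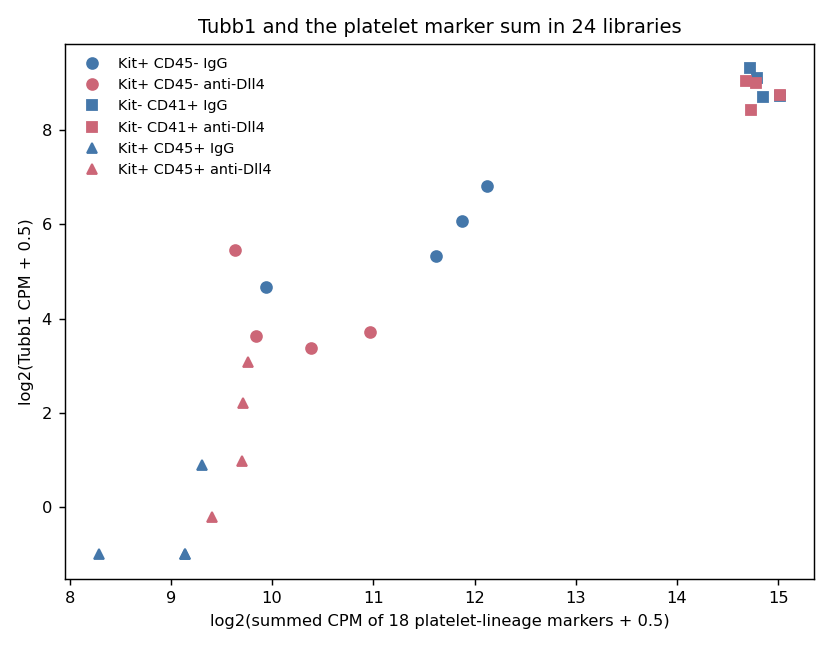
Tubb1 level, as log2(CPM + 0.5), against the summed CPM of 18 platelet lineage markers on the same scale, 1 point per library; circles are Kit+ CD45-, squares Kit- CD41+ and triangles Kit+ CD45+ cells, blue IgG and red anti-Dll4. Kit- CD41+ libraries lie at marker sums from 26304 CPM and Kit+ CD45+ libraries at or under 867 CPM.

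Tuba4a was the most abundant of the 3 α tubulins in Kit- CD41+ cells. Its level there was 1338, 1183, 1068 and 1232 CPM under IgG, against 104, 282, 207 and 397 in Kit+ CD45- cells and 89.6, 84.8, 56.3 and 96.1 for Kit+ CD45+ cells. The 3 ranges did not overlap. The log2 fold change of Kit- CD41+ over Kit+ CD45- cells was 2.28 (SE 0.25, edgeR adjusted p = 3.34e-07), and over Kit+ CD45+ cells 3.88 (SE 0.27, edgeR adjusted p = 1.22e-10). Kit+ CD45+ cells were lower than Kit+ CD45- cells by -1.60 (SE 0.25, edgeR adjusted p = 5.55e-05). Under anti-Dll4 these 3 differences were 2.49, 3.69 and -1.19, and each passed the test.

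Tuba8, a divergent α tubulin known from muscle and testis, was also highest in Kit- CD41+ cells, at 204, 168, 152 and 119 CPM under IgG. It did not separate the other populations: Kit+ CD45- libraries held 15.8, 26.0, 30.5 and 36.5 CPM and Kit+ CD45+ libraries 30.7, 27.2, 24.4 and 34.3. Its log2 fold change was 2.57 (SE 0.39) over Kit+ CD45- cells and 2.46 (SE 0.38) over Kit+ CD45+ cells, with edgeR adjusted p-values of 1.91e-05 and 1.67e-05. Under anti-Dll4 they were 3.14 and 2.37, and the first was 3.74 without Kit+ CD45- anti-Dll4 replicate 1. Kit+ CD45+ against Kit+ CD45- cells gave 0.10 (SE 0.37) under IgG and 0.77 (SE 0.38) under anti-Dll4, neither past the threshold. The latter was called, at 1.35 and 1.05, without Kit+ CD45- anti-Dll4 replicate 1 or Kit+ CD45+ anti-Dll4 replicate 4.

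Tubb2a, a β tubulin known mainly from neurons and also found in platelets, followed Tuba8. Under IgG its level was 120, 126, 109 and 98.3 CPM in Kit- CD41+ cells, 25.4, 39.4, 20.3 and 23.7 in Kit+ CD45- cells and 14.1, 46.8, 26.3 and 43.3 for Kit+ CD45+ cells. The Kit- CD41+ libraries lay above all others, and the remaining ranges overlapped. The log2 fold change was 2.06 (SE 0.30, edgeR adjusted p = 1.24e-05) over Kit+ CD45- cells and 1.80 (SE 0.29, edgeR adjusted p = 3.38e-05) over Kit+ CD45+ cells. Under anti-Dll4 Tubb2a was also higher in Kit+ CD45+ than in Kit+ CD45- cells, by 1.30 (SE 0.30, edgeR adjusted p = 0.00244), where the IgG value was 0.26 (SE 0.29) and did not pass. Tubb2b, which shares sequence with it, had 1 to 17 counts per library.

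Tubb6, a β tubulin of many non-neuronal cells, ran the other way. The Kit+ CD45+ libraries under IgG held 398, 304, 315 and 279 CPM, the Kit- CD41+ libraries 138, 90.1, 141 and 61.3, and the Kit+ CD45- libraries 234, 77.1, 102 and 117. All Kit+ CD45+ libraries lay above the rest, and Kit+ CD45- replicate 1 stood apart within its group. The log2 fold change of Kit+ CD45+ over Kit+ CD45- cells was 1.29 (SE 0.30, edgeR adjusted p = 0.0036), and that of Kit- CD41+ against Kit+ CD45+ cells was -1.59 (SE 0.30, edgeR adjusted p = 0.000212). Under anti-Dll4 the values were 1.98 and -1.14, both called. Between Kit- CD41+ and Kit+ CD45- cells the difference was -0.30 (SE 0.30) under IgG, not called, and 0.84 (SE 0.30, edgeR adjusted p = 0.0385) under anti-Dll4. The latter call was lost in 5 of 15 alternatives (edgeR adjusted p from 0.0250 to 0.184). They include leaving out Kit+ CD45- anti-Dll4 replicate 3 or 4, or Kit- CD41+ anti-Dll4 replicate 4 (0.56), whose 206 CPM was the highest of its group.

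Kit+ CD45- IgG replicate 1 also had the lowest Tubb1 (25.1 CPM) and Tuba4a (104 CPM) and the highest Tuba1a (214 CPM) of its group. Its endothelial markers summed to 2075 CPM, against 977 to 1148 in the other 3 libraries, its platelet markers to 979 CPM against 3137 to 4447, and globin took 16.8% of its counts. Without it, Kit- CD41+ cells were above Kit+ CD45- cells under IgG by 2.79 for Tubb1, 2.03 for Tuba4a, 2.37 for Tuba8 and 2.03 for Tubb2a on the log2 scale, each past the threshold. The Tubb6 difference between Kit+ CD45+ and Kit+ CD45- cells was then 1.72.

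Tubb4b, a widely expressed β tubulin abundant in ciliated cells, was lower in Kit+ CD45+ cells than in the other populations. Its mean under IgG was 121 ± 6.34 CPM (SD, n = 4) there, 261 ± 46.4 in Kit+ CD45- cells and 305 ± 16.2 for Kit- CD41+ cells. The log2 fold change of Kit+ CD45+ against Kit+ CD45- cells was -1.10 (SE 0.14, edgeR adjusted p = 4.41e-06), and that of Kit- CD41+ over Kit+ CD45+ cells 1.33 (SE 0.14, edgeR adjusted p = 8.4e-08). Kit- CD41+ and Kit+ CD45- cells differed by 0.23 (SE 0.14), which did not pass.

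Tubb5, the common β tubulin, differed little between populations. Its mean under IgG was 1107 ± 90.7 CPM (SD, n = 4) in Kit+ CD45- cells, 895 ± 49.2 in Kit- CD41+ cells and 792 ± 54.7 for Kit+ CD45+ cells. Compared with Kit+ CD45- cells it fell by 0.31 (SE 0.09, edgeR adjusted p = 0.0165) in Kit- CD41+ cells and by 0.48 (SE 0.09, edgeR adjusted p = 0.00068) in Kit+ CD45+ cells on the log2 scale. The first call was lost in 3 of 15 alternatives, without a filter on low counts, without Kit+ CD45- IgG replicate 1 and without Kit- CD41+ IgG replicate 3, with adjusted p-values from 0.00172 to 0.121 over all 15. The difference under anti-Dll4, -0.30 (SE 0.09), was lost in 4 of 15, including without Kit- CD41+ anti-Dll4 replicate 1 and without Kit+ CD45- anti-Dll4 replicate 2. Between Kit- CD41+ and Kit+ CD45+ cells Tubb5 differed by 0.18 under IgG and 0.21 under anti-Dll4 (SE 0.09 for each). Neither passed. The latter was called in 3 of 15 alternatives, at 0.24 each: the DESeq2 test, its size factors in the edgeR fit, and the fit without globin genes. Its adjusted p-values ran from 0.0215 to 0.239 over all 15.

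Tuba1a, the main α tubulin of developing neurons, was highest in Kit- CD41+ cells, at 212 ± 28.5 CPM (SD, n = 4) under IgG, against 151 ± 44.5 in Kit+ CD45- and 114 ± 15.7 in Kit+ CD45+ cells. The difference from Kit+ CD45+ cells was 0.90 (SE 0.18, edgeR adjusted p = 0.000388) on the log2 scale. That from Kit+ CD45- cells was 0.49 (SE 0.18, edgeR adjusted p = 0.0448), and it passed in 6 of 15 alternatives, with adjusted p-values from 0.00364 to 0.149. The call was lost on leaving out any 1 of the 8 libraries except Kit+ CD45- IgG replicate 1. Under anti-Dll4 the same differences were 0.76 and 0.84, both called. Since 72.9% of its windows occur in another gene, most often Tuba1c, which rose by 1.26 (SE 0.21, edgeR adjusted p = 6.45e-05) between Kit+ CD45- and Kit- CD41+ cells under IgG, these values are uncertain.

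Tubb3 and Tubb2b, β tubulins best known from neurons, were scarce. Tubb3 had 0 to 177 counts per library, with group means from 0.543 ± 0.551 CPM in Kit+ CD45+ cells to 9.41 ± 6.08 CPM in Kit- CD41+ cells, both under anti-Dll4. It was lower in Kit+ CD45+ than in Kit- CD41+ cells: the log2 fold change of Kit- CD41+ over Kit+ CD45+ was 4.13 (SE 0.87, edgeR adjusted p = 0.000612) under anti-Dll4 and 2.07 (SE 0.78, edgeR adjusted p = 0.0398) under IgG. The IgG call passed in 8 of 15 alternatives, with adjusted p-values from 0.00281 to 0.115. It was lost without Kit- CD41+ IgG replicate 1 or 2 and without Kit+ CD45+ IgG replicate 2, 3 or 4. The value was 3.46 without Kit+ CD45+ IgG replicate 1, which held 57 counts against at most 11 in the other 3. Without Kit+ CD45+ anti-Dll4 replicate 1 the other value was 4.98. Tubb3 was also lower in Kit+ CD45+ than in Kit+ CD45- cells under anti-Dll4, by -3.55 (SE 0.87, edgeR adjusted p = 0.0035), and by -4.40 without that same library. Under IgG this value was -1.49 (SE 0.78) and was called only without Kit+ CD45+ IgG replicate 1, at -2.87. The 11 neuronal and neural crest markers summed to 25.2 to 71.0 CPM in the Kit- CD41+ libraries and 114 to 227 in those of Kit+ CD45+ cells. Gap43, a growth cone protein, made up most of the second sum, with 159 ± 40.2 CPM under IgG against 11.9 ± 2.96 in Kit- CD41+ cells. Gene by gene, 4 of the 9 tested were higher and 2 lower in Kit- CD41+ than in Kit+ CD45+ cells under IgG (median log2 fold change 1.87). Under anti-Dll4, 4 were higher and 1 lower (median 1.93). Of all genes, 17.5% were higher and 19.7% lower under IgG, and 17.3% and 20.4% under anti-Dll4. Sox10 and Sox2 were at 0 in the Kit+ CD45+ IgG libraries, and Dcx, Elavl3 and Map2 were at 0 in those under anti-Dll4. The part of these markers in the Tubb3 values was not tested. Tubb2b had group means between 0.386 and 1.21 CPM and passed the test in no comparison.

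The share of each isotype in the reads of its family was compared next, as a description with no test. Of the reads on the 7 β tubulins under IgG, Tubb1 took 30.3%, 27.0%, 23.0% and 23.4% in the Kit- CD41+ libraries, with a mean of 25.9 ± 3.44% (SD, n = 4). In Kit+ CD45- cells the Tubb1 share was 1.46%, 4.42%, 2.72% and 6.69% (mean 3.82 ± 2.27%), and in Kit+ CD45+ cells it was 0.0262 ± 0.0523%. Under anti-Dll4 the Tubb1 shares were 23.8 ± 3.40%, 1.26 ± 0.94% and 0.264 ± 0.243%. No Tubb1 share outside Kit- CD41+ cells reached the lowest within them, 18.9%.

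By reads, without correction for exon length, the share of Tubb5 was largest of the β tubulins in each group. Per kilobase of exon, Tubb1 had the larger share in Kit- CD41+ cells. There it took 39.9% against 30.4% for Tubb5 under IgG, and 37.3% against 31.3% under anti-Dll4. By reads under IgG, Tubb5 took 46.5 ± 4.06% in Kit- CD41+ cells, 69.5 ± 2.59% in Kit+ CD45- cells and 62.2 ± 3.72% for Kit+ CD45+ cells. Tubb6 took 25.5 ± 4.34% in Kit+ CD45+ cells but 8.16 ± 3.71% in Kit+ CD45- and 5.56 ± 2.01% in Kit- CD41+ cells. Tubb4b took 16.5 ± 3.37% in Kit+ CD45-, 15.8 ± 0.42% in Kit- CD41+ and 9.53 ± 0.52% in Kit+ CD45+ cells, and Tubb2a 1.72 ± 0.58%, 5.86 ± 0.33% and 2.55 ± 1.17% in the same order. Tubb3 and Tubb2b together stayed small: the highest single share was 0.908% for Tubb3 and 0.108% for Tubb2b. In these data the second β isotype by reads was thus Tubb1 in Kit- CD41+ cells, Tubb4b in Kit+ CD45- cells, and Tubb6 in the Kit+ CD45+ gate.

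**Figure D3:**
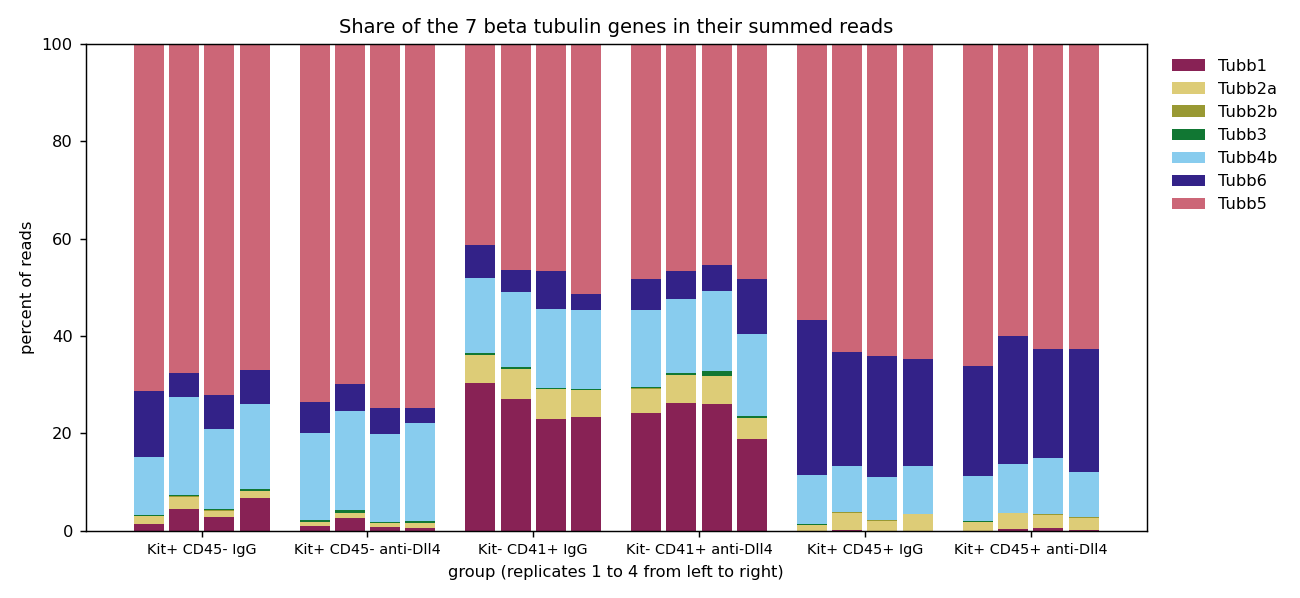
Percent of the reads on 7 β tubulin genes taken by each, as stacked bars from 0 to 100%, 1 bar per library in 6 groups. Tubb1 takes 18.9% to 30.3% in the 8 Kit- CD41+ libraries and at most 6.69% elsewhere, and Tubb6 is widest in Kit+ CD45+ cells.

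Among the 3 α tubulins, Tuba4a took 76.4 ± 2.49% (SD, n = 4) of the reads in Kit- CD41+ cells under IgG, 55.6 ± 18% in Kit+ CD45- cells and 36.2 ± 6.24% for Kit+ CD45+ cells. Its share in the single Kit+ CD45- libraries was 31.2%, 65.8%, 53.5% and 71.9%, the widest spread of any group. Tuba1a took 13.5 ± 1.98%, 38.1 ± 18.7% and 50.9 ± 7.67% in the same order of populations, and Tuba8 10.1 ± 1.74%, 6.32 ± 1.31% and 13.0 ± 1.77%. Under anti-Dll4 the Tuba4a shares were 76.0 ± 1.25%, 59.9 ± 5.81% and 36.9 ± 4.19%. Kit- CD41+ and Kit+ CD45+ cells thus differed in which of Tuba4a and Tuba1a was the larger.

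**Figure D4:**
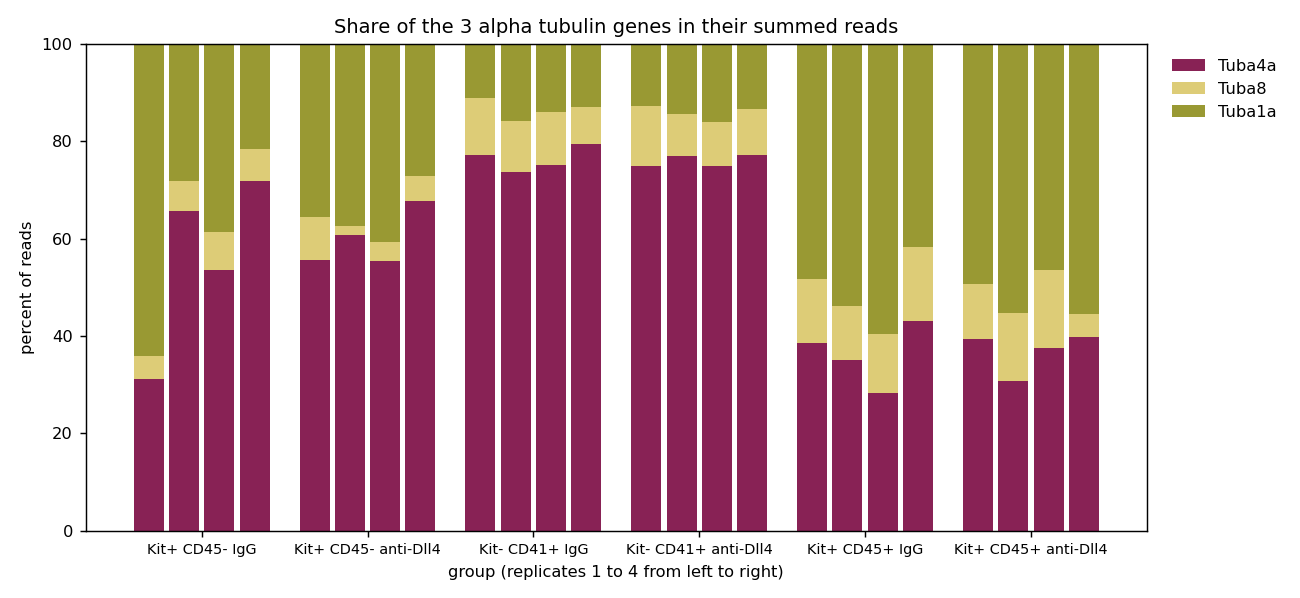
Percent of the reads on 3 α tubulin genes taken by each, as stacked bars from 0 to 100%, 1 bar per library in 6 groups. Tuba4a takes 73.7% to 79.5% in the 8 Kit- CD41+ libraries and 28.2% to 43.0% in the 8 Kit+ CD45+ libraries.

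Per kilobase of exon, a scale that corrects for exon length, Tubb1 had the highest mean of the 10 genes in Kit- CD41+ cells. All exon bases entered the length, also those shared with other genes and the 37.3% of Tuba4a overlapped by Stk16. The rank of Tuba4a beside Tubb1 is therefore uncertain. The Tubb1 level under IgG was 359 ± 75.5 CPM per kilobase (SD, n = 4), followed by Tuba4a at 326 ± 30.3 and Tubb5 at 269 ± 14.8. The library ranges of Tubb1 (295 to 451) and Tuba4a (289 to 362) overlapped. Tuba8 at 71.0 ± 15.6 and Tubb2a at 70.5 ± 7.54 lay within each other's SD. Under anti-Dll4 the first 3 were 323 ± 60.3, 289 ± 12.1 and 268 ± 8.94, and all 3 lay within the spread of Tubb1. Per kilobase the Tubb1 share of the β tubulins was 39.9% under IgG and 37.3% under anti-Dll4, since its exons, 1406 bases, are shorter than those of Tubb5, 3327 bases.

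In the other populations Tubb5 led on the same scale. In Kit+ CD45- cells under IgG it stood at 333 ± 27.3 CPM per kilobase, then Tubb4b at 125 ± 22.2, Tuba1a at 83.6 ± 24.7, Tuba4a at 66.9 ± 33.4, Tubb6 at 54.4 ± 28.5 and Tubb1 at 43.4 ± 27.2; from Tuba1a to Tubb1, neighbours lay within their spread. In Kit+ CD45+ cells Tubb5 at 238 ± 16.4 was followed by Tubb6 at 133 ± 21.1. Tuba1a at 63.1 ± 8.68 and Tubb4b at 58.1 ± 3.04 came next, with overlapping library ranges. Tubb1 was the lowest of the 10 there, at 0.242 ± 0.484. Summed over the family, the 8 β tubulin genes of the table gave 894 ± 97.6 CPM per kilobase in Kit- CD41+ cells under IgG, 575 ± 47.3 in Kit+ CD45- and 451 ± 7.91 in Kit+ CD45+ cells. The 6 α genes gave 634 ± 42.8, 287 ± 23.3 and 198 ± 11.6, so both families were highest in Kit- CD41+ cells.

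Counted over the 10 genes, 5 were higher and 1 lower in Kit- CD41+ than in Kit+ CD45- cells under IgG, where 13.8% of all tested genes were higher and 14.0% lower. Tubb1, Tuba4a, Tuba8, Tubb2a and Tuba1a rose and Tubb5 fell. Under anti-Dll4 the count was 6 higher, with Tubb6 added, and 1 lower, against 15.2% and 14.7% of all genes. The median log2 fold change of the 10 was 0.54 under IgG and 0.88 under anti-Dll4, beside -0.06 and -0.07 over all genes.

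Between Kit+ CD45+ and Kit+ CD45- cells under IgG, 1 of the 10 (Tubb6) was higher and 4 (Tubb1, Tubb4b, Tubb5 and Tuba4a) were lower, against 10.0% and 9.18% of all genes. Under anti-Dll4, 2 were higher (Tubb6 and Tubb2a) and 5 lower, with Tubb3 added, against 16.6% and 12.6%. Kit- CD41+ cells held 7 higher and 1 lower (Tubb6) than Kit+ CD45+ cells under IgG, where 17.5% of all genes were higher and 19.7% lower. The same counts were found under anti-Dll4, with 17.3% and 20.4% of all genes. The comparisons within an antibody share libraries, so their counts are not independent. With upper-quartile scaling in place of TMM, the share of higher genes among all calls went from 51.0% to 38.7% for Kit- CD41+ against Kit+ CD45- cells under anti-Dll4. For Kit+ CD45+ against Kit+ CD45- cells it went from 52.2% to 41.8% under IgG and from 56.8% to 46.2% under anti-Dll4. That scaling moved the median of all genes by up to -0.14 on the log2 scale, and no called direction of the 10 genes turned.

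**Figure D5:**
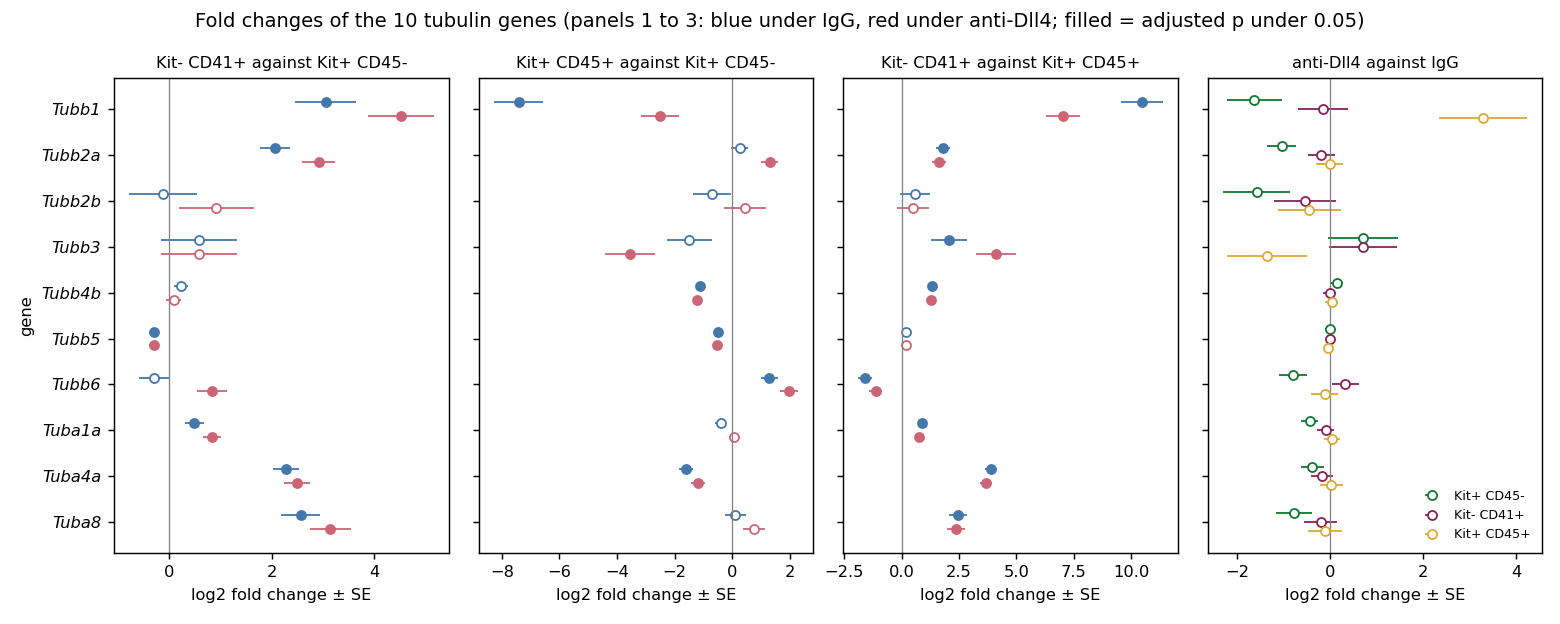
Log2 fold changes with their standard errors on the horizontal axis for the 10 tubulin genes in 3 population comparisons, blue under IgG and red under anti-Dll4, and, in the last panel, for anti-Dll4 against IgG in each population; filled points passed an edgeR adjusted p of 0.05. The point farthest from 0 is that of Tubb1, at 10.48 for Kit- CD41+ against Kit+ CD45+ cells under IgG, and no point in the last panel is filled.

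None of the 10 genes passed the test between anti-Dll4 and IgG. In Kit+ CD45- cells 0% of all genes were called by edgeR in either direction, with 1733 of 15618 at an unadjusted p under 0.05. Of the 10, 5 were among these: Tubb1, Tubb2a, Tubb2b, Tubb6 and Tuba1a, all with lower means under anti-Dll4. A negative log2 fold change was found for 8 of the 10 and for 53.4% of all tested genes. DESeq2 called 82 of all genes, 3 of them upward, and none of the 10. Tubb1 went from 61.0 ± 38.3 to 19.5 ± 16.2 CPM (log2 fold change -1.62, SE 0.58, edgeR adjusted p = 0.347), and the groups overlapped. Without replicate 2 under anti-Dll4 the Tubb1 value was -2.39 (edgeR adjusted p = 0.311), in a range of 0.270 to 0.726 over 15 alternatives.

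Tubb2a in Kit+ CD45- cells was 25.4, 39.4, 20.3 and 23.7 CPM under IgG and 11.2, 17.0, 11.2 and 13.3 under anti-Dll4, so every anti-Dll4 library was below every IgG library. Its log2 fold change was -1.04 (SE 0.31, edgeR adjusted p = 0.250). Tubb2b, at 1 to 12 counts per library, was separated in the same direction. Of all tested genes, 2.23% lay wholly below and 0.916% wholly above, and 2 and 0 of the 10 did. Tubb2a and Tubb2b share 49.6% and 36.9% of their 50-base windows with other genes, most often each other, so the 2 are not independent. The median log2 fold change of the 10 genes was -0.61, beside -0.03 over all genes. That of the 18 platelet lineage markers was -0.94 with none called, that of the 9 endothelial markers -0.75 with none called, and that of 11 erythroid markers 0.71 with none called. Their part in the tubulin values was not tested.

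In Kit- CD41+ cells, 0% of all genes were called by edgeR between the antibodies, with 435 at an unadjusted p under 0.05, and DESeq2 called 2. None of the 10 was among any of these. Tubb1 was 505 ± 106 CPM under IgG and 454 ± 84.8 under anti-Dll4 (log2 fold change -0.15, SE 0.54), and Tuba4a was 1205 ± 112 and 1071 ± 44.6 (-0.17, SE 0.24). In Kit+ CD45+ cells 0.00640% of all genes were called, which is 1 gene, the thrombin receptor gene F2rl2. An unadjusted edgeR p under 0.05 was found for 453 of the 15618 tested genes, among them 1 of the 10. That gene was Tubb1, at 0.341 ± 0.681 CPM under IgG and 3.47 ± 3.35 under anti-Dll4 (log2 fold change 3.29, SE 0.95, edgeR adjusted p = 0.915). It rests on few reads: 0, 18, 0 and 0 counts against 4, 53, 92 and 21, and the groups overlapped. Over 15 alternatives the value ran from 2.52 to 8.14, with an adjusted p from 0.340 to 1. DESeq2 called 14 of all genes and none of the 10. F2rl2, which is among the 18 platelet markers, rose from 6.02 ± 3.12 to 33.9 ± 14.2 CPM (log2 fold change 2.51, SE 0.37, edgeR adjusted p = 0.0093). The platelet marker sum in these libraries was 312 to 635 CPM under IgG and 678 to 867 under anti-Dll4, and its part in the Tubb1 values was not tested.

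Averaged over the 3 populations, 0% of all genes were called by edgeR between the antibodies. Of the 15618 tested genes, 1311 had an unadjusted edgeR p under 0.05, and DESeq2 called 31. Of the 10, Tubb2a (-0.41, SE 0.17) and Tubb2b (-0.85, SE 0.40) were among the 1311, and neither tool called any. A test of whether the antibody effect differs between populations called 4 of the 15618 tested genes by edgeR, with 631 at an unadjusted p under 0.05. None of the 10 was among those called, and Tubb1, Tubb6 and Tubb2a were among the 631. Tubb1 had the smallest p of the 10, with an edgeR adjusted p of 0.592, where its antibody effect was -1.62, -0.15 and 3.29 in Kit+ CD45-, Kit- CD41+ and Kit+ CD45+ cells.

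The transcription factors known to act on Tubb1 or in megakaryocytes were mostly higher in Kit- CD41+ cells. Of the 8 (Nfe2, Mafg, Mafk, Gata1, Zfpm1, Fli1, Runx1 and Tal1), 6 were higher than in Kit+ CD45- cells under IgG and none lower. Of all tested genes 13.8% were higher and 14.0% lower. The median log2 fold change of the 8 was 1.36 beside -0.06 over all genes. Nfe2, the large subunit of NF-E2 that drives Tubb1 transcription, stood at 459 ± 49.3 CPM against 132 ± 48.3 (1.80, SE 0.22, edgeR adjusted p = 1.73e-06). Runx1 rose by 1.96 (SE 0.24) and Fli1 by 1.32 (SE 0.21), with edgeR adjusted p-values of 1.6e-06 and 3.96e-05. Gata1, the erythroid and megakaryocytic GATA factor, had 391 ± 52.8 against 149 ± 48.0 CPM, a log2 fold change of 1.396 (SE 0.53) with an edgeR adjusted p of 0.0518. Under anti-Dll4, 4 of the 8 were higher and none lower in that comparison, against 15.2% and 14.7% of all genes. Compared with Kit+ CD45+ cells, 7 were higher and none lower under either antibody. There 17.5% of all genes were higher and 19.7% lower under IgG, and 17.3% and 20.4% under anti-Dll4. Kit+ CD45+ cells had 4 of the 8 lower than Kit+ CD45- cells under IgG, among them Gata1 (-3.32, SE 0.58) and Tal1 (-1.86, SE 0.25), and 1 higher, Runx1 (1.20, SE 0.24). In that comparison 9.18% of all genes were lower and 10.0% higher. None of the 8 was called between anti-Dll4 and IgG in any population. The part of these factors in the Tubb1 values was not tested.

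Other tubulin genes, 7 tested of 10 listed, had 3 higher and 1 lower in Kit- CD41+ than in Kit+ CD45- cells under IgG, with a median log2 fold change of 0.33. In this comparison 13.8% of all genes tested were higher and 14.0% lower, with a median of -0.06. Tuba1c, Tubg1 (γ tubulin, which nucleates microtubules; 0.33, SE 0.11) and Tubd1 (δ tubulin of centrioles; 0.54, SE 0.17) rose, and Tuba1b, a common α tubulin, fell (-0.48, SE 0.10). Of 23 folding factors, 2 were higher and 3 lower (median -0.07), shares not above those of all genes. Tbcb, a cofactor that handles α tubulin, rose by 0.77 (SE 0.11) and Pdcl3, a helper of the chaperonin, by 0.64 on the log2 scale. Cct2, a subunit of the chaperonin that folds tubulin, fell by 0.34 (SE 0.09), and Pfdn2 of prefoldin, which delivers new tubulin to it, by 0.43. Under anti-Dll4 the other tubulin genes had 4 higher and 1 lower, and the folding factors 2 higher and 5 lower. Of all tested genes, 15.2% were higher and 14.7% lower in that comparison. Against Kit+ CD45+ cells under IgG the counts were 4 higher and 0 lower for other tubulins and 3 higher and 1 lower for folding factors. There 17.5% of all genes were higher and 19.7% lower.

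Of 20 tested genes for enzymes that modify tubulin, 2 were higher and 2 lower in the same comparison (median 0.07), again not above the shares of all genes, 13.8% and 14.0%. Ttll1, the catalytic subunit of a polyglutamylase, stood at 156 ± 18.2 CPM in Kit- CD41+ cells and 30.6 ± 4.04 for Kit+ CD45- cells (2.35, SE 0.22, edgeR adjusted p = 2.45e-08). Its log2 fold change over Kit+ CD45+ cells was 3.10 (SE 0.22). Ttll11, another polyglutamylase, rose by 2.99 (SE 0.78), while Vash2, a tubulin detyrosinating enzyme, had -2.42 (SE 0.54) and Ttll12 -1.08 (SE 0.26), both called lower. Under anti-Dll4, 4 were higher and 4 lower, against 15.2% and 14.7% of all genes. Compared with Kit+ CD45+ cells, 2 were higher and 2 lower under either antibody. The shares of all genes there were 17.5% and 19.7% under IgG, and 17.3% and 20.4% under anti-Dll4.

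Of 27 microtubule-binding genes, 3 were higher and 6 lower in Kit- CD41+ than in Kit+ CD45- cells under IgG (median -0.32), against the same 13.8% and 14.0% of all genes. The 4 with the smallest p were all lower: Map4, a stabilising protein (-1.94, SE 0.30), the destabilisers Stmn1 (-0.92, SE 0.17) and Stmn2 (-2.52, SE 0.47), and the plus-end protein Clip1 (-1.34, SE 0.26). Of 13 motor genes, 2 were higher and 3 lower (median 0.02). Kif5b, a kinesin heavy chain, rose from 233 ± 34.0 to 505 ± 36.6 CPM (1.12, SE 0.12, edgeR adjusted p = 1.82e-07) and Dctn2 of dynactin by 0.60 (SE 0.15), while the mitotic kinesins Kif23 (-1.09, SE 0.19) and Kif11 (-0.46, SE 0.13) were lower. Of 10 cycling markers, 3 were lower and none higher, with a median of -0.35, and their part in these values was not tested. Under anti-Dll4 the binding genes had 5 higher and 7 lower and the motors 3 higher and 3 lower. The shares of all genes there were 15.2% and 14.7%. Kit+ CD45+ against Kit+ CD45- cells had 10.0% of all genes higher and 9.18% lower under IgG. The lists had 2 higher and 2 lower among binding genes, 1 higher and 0 lower among motors, 0 higher and 1 lower among modifying enzymes and other tubulins alike, and 0 higher and 4 lower among folding factors. None of these lists had a gene called between anti-Dll4 and IgG in any population.

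The genes whose level followed each isotype most closely were sought by the root mean square difference of centred log2 CPM over the 24 libraries, among 9258 candidates with a mean of at least 5 CPM. For Tubb1 they were Alox12 (0.60), the platelet 12-lipoxygenase; Cd226 (0.63), an adhesion receptor; Treml1 (0.76), a platelet granule receptor; Ly6g6f (0.79), a platelet surface protein; and F2rl2 (0.84). Alox12 stood at 853 CPM in Kit- CD41+, 87.8 in Kit+ CD45- and 2.79 in Kit+ CD45+ cells under IgG. Closest to Tuba4a were Prkar2b (0.27) and Kyat1 (0.29), to Tuba8 Susd3 (0.46) and F2rl3 (0.48), and to Tubb2a Pros1 (0.28) and Edem1 (0.36). Prkar2b is a regulatory subunit of protein kinase A, F2rl3 a thrombin receptor of platelets and Pros1 the anticoagulant protein S.

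Closest to Tubb5 were Cct2 (0.13), the chaperonin subunit named above, and Haus7 (0.13), of the augmin complex that branches spindle microtubules. Tubb4b was closest to Ndrg3 (0.18) and Bysl (0.19), Tubb6 to Tes (0.26) and Adgrg3 (0.35), and Tuba1a to Nckap1 (0.24) and Shoc2 (0.25). The scarce Tubb3 was closest to Atp8a1 (0.76) and Nmnat3 (0.77), and the scarce Tubb2b to Rbmx (0.45) and Ddah2 (0.46). The libraries share populations and depth, so these distances describe the same 6 groups.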

How the data were processed

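Polyadenylated RNA of sorted cells was turned into cDNA, amplified by long-distance PCR and sequenced on an Illumina HiSeq, per the labels' protocols. The submitters' processing notes name STAR, HTSeq, DESeq2, FastQC and CASAVA 1.4, with build mm10. The sources used here do not give each tool's role, the annotation release or the use of strand. The authors deposited raw read counts per gene for 29716 genes, and a log2 table of 30202 genes, which the deposited values show to be log2 of counts divided by size factors plus 1; it was used for gene names and positions. Its 1 column that matches none of the 24 libraries was left out.

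The counts were tested in edgeR 4.0.16 (R 4.3.3) with TMM scaling, filterByExpr, robust dispersion and the quasi-likelihood F-test, 1 coefficient per group over all 24 libraries (18 residual degrees of freedom), a design that shares 1 estimate of spread. P-values were adjusted by Benjamini-Hochberg over the 15618 tested genes, with a threshold of 0.05, and standard errors are the fold change over the root of F. A gene is written as higher, lower, risen or fallen only past that threshold. Shares are counts of a gene over the summed counts of the listed genes of its family, and exon lengths are from GENCODE M21. Alternatives were other scalings, DESeq2 1.42.0, no filter, no globin genes, only the libraries compared, a replicate block, and each library left out. The scripts were tested on simulated data.

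All 10 tubulin genes are named. From each list of microtubule genes, up to 4 with the smallest p among those called in a comparison are named, with genes whose role the text states, the 4 sorting markers, and the genes nearest in level. F2rl2 in the antibody comparison was chosen after its value was seen, as were the values of single libraries that are singled out. The genes and lists were chosen with earlier results of these data known.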

Additional observations from a re-analysis of the deposited data

Results flagged for a closer look

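Libraries were checked in 60 sets of 4 (10 genes in 6 groups). In each set the library farthest from the others was compared with the range of the set. In 7 sets a library lay past the 95% limit of Dixon's test. Chance alone flags about 1 set in 20 where values are independent and normal. These were CPM of 10 genes in the same libraries, so that rate is only a guide. Tubb1 gave a pair of the 7 sets. In Kit+ CD45- cells under anti-Dll4, replicate 2 held 43.7 CPM against 9.84 to 12.6 in the others, and in Kit+ CD45+ cells under IgG, replicate 2 held 1.36 CPM against 0 in the others. With the others at 0, any count in that library would have been flagged. Tuba4a in Kit+ CD45- anti-Dll4 replicate 3 was 143 CPM, below 201 to 211. Tuba1a in Kit- CD41+ IgG replicate 2 was 254 CPM, above 194 to 200. Tubb5 in Kit+ CD45+ IgG replicate 1 was 711 CPM, below 812 to 824. Tubb6 in Kit- CD41+ anti-Dll4 replicate 4 was 206 CPM, above 111 to 114. Tubb3 in Kit- CD41+ anti-Dll4 replicate 3 was 18.5 CPM, above 5.62 to 6.95.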

How the results depend on the processing

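Counts of called tubulin genes held within 1.5 times of the reported value in all 166 recomputations. Of 1644 recomputed fold changes, 1608 kept their direction if called and their side of the threshold, 29 lost a call, 7 gained one and 0 turned a called direction; 59 that were called neither way changed sign. The counts were 6 and 7 for Kit- CD41+ against Kit+ CD45- cells (IgG, then anti-Dll4), 5 and 7 for Kit+ CD45+ against Kit+ CD45- cells and 8 and 8 for Kit- CD41+ against Kit+ CD45+ cells, and with a replicate block 6, 7, 5, 7, 8 and 8; with each library left out in turn they ranged over 4 to 5, 6 to 7, 5 to 6, 6 to 8, 7 to 8 and 8 to 8. The lowest, 4, was without Kit- CD41+ IgG replicate 3. Between antibodies the count was 0 under every alternative run, the block included. The replicate numbers were not taken as pairs, since not every pair correlated above 0.1: the deviations of same-numbered IgG and anti-Dll4 libraries correlated at -0.19 to 0.12, over 0.1 in 1 of 12 pairs, and those of libraries of 1 set in different populations at -0.09 to 0.24, over 0.1 in 8 of 24.

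Shares moved with their definition. Per kilobase, the Tubb1 share was 7.44% and 2.54% in Kit+ CD45- cells (IgG, then anti-Dll4), 39.9% and 37.3% in Kit- CD41+ cells and 0.525% in Kit+ CD45+ cells under anti-Dll4, and the Tuba4a share 43.0% in Kit+ CD45- cells under anti-Dll4, 63.3% and 62.8% in Kit- CD41+ cells and 22.5% and 22.9% in Kit+ CD45+ cells. With all 6 α tubulin genes in the denominator, the Tuba4a share was 35.6% and 32.8%, 66.1% and 64.2%, and 19.3% and 20.03% in the 3 populations. Without TMM factors, 19 of 60 mean levels moved by more than 1 SD. Tubb2b, and Tubb1 and Tubb3 in Kit+ CD45+ cells, rest on too few counts for a firm fold.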
